A study of Mus musculus with 2 samples.

Results

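Olfm4, Orm1, Tmem45a2, Frmpd4, Astn2, Mapk4, Rasl11b, Tnfsf13b, Sugct and Nt5e are 10 of the 32285 genes counted in 2 single-cell libraries of mouse bone marrow, and were selected on their UMI levels in neutrophils of the library labelled Utx-deleted (below, the Utx-labelled library), set against the control. Because those values chose them, their ratios between libraries are descriptions with no test. As that choice favoured, 9 of them stood above the control in maturing neutrophils, which is no separate check of the label. Tnfsf13b was not higher in maturing neutrophils of the Utx-labelled library, and the 10 are called by their names below.

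One library is the control and the other carries the label Utx deleted. Both hold CD45.2+ Kit+ marrow cells taken 10 weeks after transplantation, so cells of the 2 libraries share the graft setting and the sort, and both were stained with barcoded antibodies before droplet capture with 3′ chemistry (version 3.1). The labels give no strain, sex, allele, Cre driver, donor number or host, and do not say what the 2 hashtag antibodies mark. With 1 library for each label there is no replicate, so no p-value is given, and every interval is a 95% interval for counting error only, without the spread between cells or animals.

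Neutrophils arise in the marrow from granulocyte progenitors that make azurophil granule proteins such as elastase. Cells then switch to specific granule proteins (lactoferrin, Camp, Ngp, Lcn2) while they still divide, leave the cell cycle, make gelatinase granule proteins and finally acquire the genes of late, motile cells. UTX, encoded by Kdm6a, removes repressive methyl marks from histone H3 and takes part in enhancer activation.

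Gene UMIs, counted by unique molecular identifier, came to 122130256 over 7827 barcodes of the control library and to 129736034 over 7883 barcodes of the other. After filtering, 7011 and 7206 cells were kept, of which 5076 and 5391 were maturing neutrophils by a gate on specific or late granule genes. A total of 17 barcode sequences occurred in both libraries. Kdm6a stood at 88.9 CPM (UMIs of a gene per 1e+06 gene UMIs of the class) in control maturing neutrophils and at 90.02 CPM in those of the other library (5213 and 5975 UMIs). Its 3′ counts were thus not lower under the Utx label, but 3′ tags may lie outside a deleted part and then check nothing, so the library is named only by its label throughout. The sorted marker was low in these cells. Kit RNA was found in 28.1% and 23.5% of maturing neutrophils, against 95.8% and 98.9% of HSC/MPP-like cells.

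The genes lie on 9 chromosomes in the GENCODE M21 annotation of GRCm38, the assembly of the submitters' build, and all are protein coding. Olfm4 is at chr14:79984081-80023139 on the plus strand, Orm1 at chr4:63344560-63348163 on the plus strand and Tmem45a2 at chr16:57036967-57071372 on the minus strand. Frmpd4 spans chrX:167471309-168577231 and Astn2 chr4:65380803-66404611, both on the minus strand, and each covers over 1 Mb. Rasl11b is at chr5:74195286-74199481 (plus), Tnfsf13b at chr8:10006467-10039072 (plus), Sugct at chr13:16857472-17695553 (minus) and Nt5e at chr9:88327197-88372092 (plus). Because 3′ UMIs were counted per gene with no length scaling, levels are compared between samples and cell classes, not between genes.

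RefSeq start regions were found for 7 of the 10 genes in 10 entries (build GRCm38.p6). The 250 bases before the start are shown for Olfm4, whose level differed between hashtags, and for Astn2, which was high in both hashtags of the Utx-labelled library. Capitals mark matches to the PU.1 motif GAGGAAGT or to the NF-kB consensus on either strand. The Olfm4 region is chr14:80000052-80000301 on the plus strand and the Astn2 region is chr4:66404484-66404733 on the minus strand, each printed 5′ to 3′ along its gene.
Olfm4: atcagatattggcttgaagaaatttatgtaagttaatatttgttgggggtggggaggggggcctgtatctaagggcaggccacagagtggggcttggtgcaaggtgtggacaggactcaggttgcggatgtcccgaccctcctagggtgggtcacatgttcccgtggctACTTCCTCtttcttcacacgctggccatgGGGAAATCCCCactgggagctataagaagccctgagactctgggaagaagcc
Astn2: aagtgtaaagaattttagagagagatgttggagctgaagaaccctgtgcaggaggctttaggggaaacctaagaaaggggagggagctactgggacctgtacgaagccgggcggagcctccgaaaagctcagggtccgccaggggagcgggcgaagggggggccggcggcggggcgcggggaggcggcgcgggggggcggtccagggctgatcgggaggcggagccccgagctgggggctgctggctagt
The Olfm4 region held 1 PU.1 match, which began 81 bases before the start, read as ACTTCCTC on this strand, and 2 overlapping NF-kB matches, the first beginning 52 bases before it. Of 32851 start regions of the same length in the table, 2.44% held the PU.1 motif and 7.25% the NF-kB consensus. No other entry of the 10 genes held either, and none held the C/EBP motif TTGCNNAA, found in 9.56% of all regions. These motifs were chosen after the Olfm4 sequence had been viewed, and a match is a description of letters, not of a bound site. The 3′ counts do not show which start was used.

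In maturing neutrophils, 5 of the 10 genes stood 2-fold or more above the control in the Utx-labelled library and none stood 2-fold below it. Among the 10958 genes with 100 UMIs or more in the 2 libraries together, 1.27% stood that far above and 3.5% that far below, but since this contrast chose the genes, nothing is read from the count. The median log2 ratio was 1.05 over the 10 genes and -0.07 over all genes tested. The genes nearest the 2-fold line were Nt5e inside it, at 1.11, and Orm1 outside it, at 0.99. Nt5e was under the line within hashtag 2 (0.82) and with the same stage weights in both libraries (0.69), as in 5 of 16 alternatives in all.

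Olfm4 encodes olfactomedin 4, a secreted glycoprotein of specific granules that is found in only a part of neutrophils. Its level in maturing neutrophils was 104 CPM in hashtag 1 and 110 CPM in hashtag 2 of the control library, and 1570 CPM in hashtag 1 and 192 CPM in hashtag 2 of the Utx-labelled library. The excess was thus carried mainly by hashtag 1, where the log2 ratio to the same hashtag of the control was 3.91 (3.86 to 3.97), against 0.81 in hashtag 2. Over all cells the ratio was 2.95, from 6359 and 55471 UMIs.

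Frmpd4 encodes a scaffold protein with FERM and PDZ domains, known from the postsynaptic density. It stood at 5.06 and 3.94 CPM in control hashtags 1 and 2, and at 31.9 and 40.2 CPM in those of the Utx-labelled library. Both control values lay under both others, and the log2 ratio over all cells was 2.91 (2.73 to 3.10, from 274 and 2334 UMIs). Astn2, astrotactin 2, is known for protein trafficking at the surface of migrating neurons. Its levels were 43.9 and 33.2 CPM in the control hashtags and 224 and 217 CPM in the others, a log2 ratio of 2.49 (2.42 to 2.55). Tmem45a2, a gene of the TMEM45 membrane protein family, stood at 14.4 and 13.8 CPM against 54.3 and 68.3 CPM, a log2 ratio of 2.07 (1.96 to 2.18). These 3 genes were high in both hashtags, and in each of them hashtag 1 and hashtag 2 of the Utx-labelled library stood closer to each other than to the control.

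Nt5e encodes CD73, the surface enzyme that turns extracellular AMP into adenosine. Its levels were 18.5 and 27.6 CPM in the control hashtags and 55.9 and 48.5 CPM in the others (log2 ratio 1.11). Orm1 encodes orosomucoid 1, an acute-phase plasma protein that neutrophils also store. It stood at 177 and 162 CPM in the control and at 312 and 342 CPM in the Utx-labelled library, a log2 ratio of 0.99 (0.96 to 1.03). Its near-identical neighbours Orm2 and Orm3 had 27 and 11 UMIs in control maturing neutrophils and 37 and 18 in the others. Reads shared by the 3 genes could be split or dropped in counting, so the Orm1 counts are uncertain to that extent.

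Smaller excesses were seen in 3 further genes. Sugct, a mitochondrial enzyme that transfers coenzyme A to glutarate, rested on 976 and 1972 UMIs and stood at 17.9 and 16.2 CPM in the control hashtags against 30.8 and 29.4 CPM. Rasl11b, a small Ras-like GTPase, stood at 24.5 and 24.1 CPM against 39.2 and 40.05 CPM. Mapk4, an atypical MAP kinase encoded at chr18:73928486-74065359 on the minus strand, stood at 128 and 94.0 CPM against 137 and 161 CPM, so the hashtags of 1 library differed by about as much as the libraries did. Its log2 ratio was 0.10 within hashtag 1 and 0.77 within hashtag 2.

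Tnfsf13b encodes BAFF, the cytokine that keeps B cells alive. Its level was 122 and 117 CPM in the control hashtags and 106 CPM in each hashtag of the Utx-labelled library, a log2 ratio of -0.13 (-0.18 to -0.09). For 9 of the 10 genes both hashtags of the Utx-labelled library lay above both of the control, as did 21.8% of all genes tested, and Tnfsf13b was the gene that lay below, as did 47.9%.

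**Figure D1:**
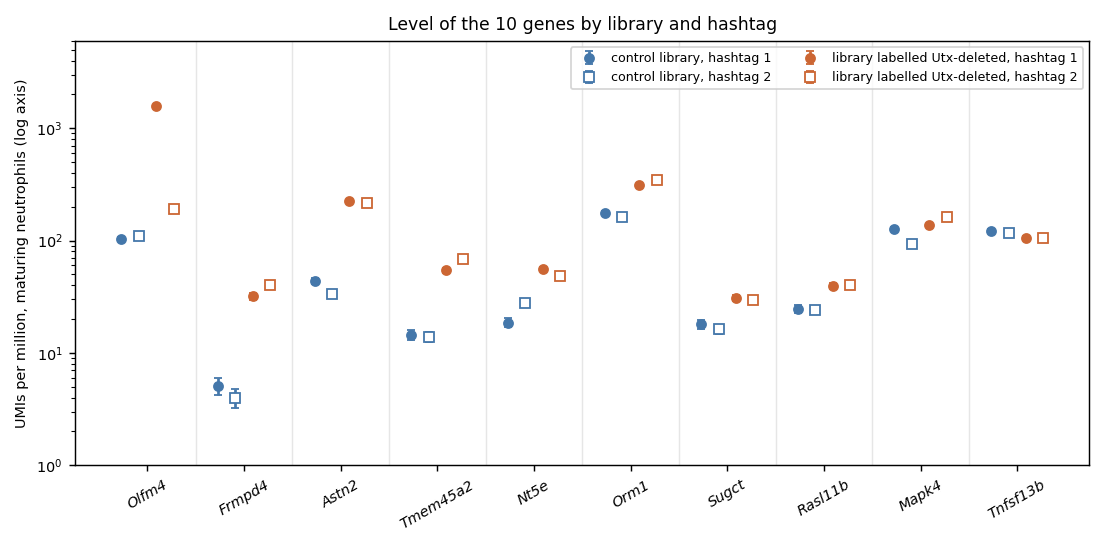
Level of each gene in maturing neutrophils, in CPM on a log axis, for hashtag 1 (filled circles) and hashtag 2 (open squares) of the control library (blue) and of the Utx-labelled library (orange). Bars are 95% Poisson intervals, often smaller than the symbols. Olfm4 reached 1570 CPM in 1 hashtag and 192 CPM in the other, while Frmpd4, Astn2 and Tmem45a2 were high in both.

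Olfm4 was present in cells in large amounts or hardly at all. Among maturing neutrophils of the control library, 4852 of 5076 cells had no Olfm4 UMI, 52 had 1, only 5 had 2 to 4 and 167 had 5 or more. In the Utx-labelled library, 4100 cells had none, 315 had 1, 22 had 2 to 4 and 954 had 5 or more. Cells with 5 or more UMIs, called Olfm4-high here, held 98.9% and 99.3% of the Olfm4 UMIs, with medians of 36 and 55 UMIs per cell.

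The share of Olfm4-high cells set the hashtags apart. It was 2.99% (68 of 2275 cells, exact binomial interval 2.33 to 3.77%) in control hashtag 1 and 3.21% (84 of 2615, 2.57 to 3.96%) in control hashtag 2. In the Utx-labelled library it was 29.3% (730 of 2491, 27.5 to 31.1%) in hashtag 1 and 4.07% (102 of 2505, 3.33 to 4.92%) in hashtag 2. Hashtag 2 of that library thus lay near both control hashtags, and hashtag 1 alone stood apart. Per Olfm4-high cell the amounts were closer. Their median was 37 and 36.5 UMIs in control hashtags 1 and 2, and 56.5 and 48.5 in those of the other library.

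The share was high from the first stage at which Olfm4-high cells were frequent. In hashtag 1 of the Utx-labelled library, 30.6% of cycling cells, 31.1% of post-mitotic cells, 26.0% of intermediate cells and 25.5% of late cells were Olfm4-high. In its hashtag 2 the shares ran from 3.29 to 5.63%, and in the control hashtags from 2.21 to 3.55%. Neutrophil progenitors, which express azurophil granule genes, held 0 Olfm4-high cells of 353 in the control (which, at a limit of 3 counts, allows a share of up to 0.850%) and 1 of 508 in the other library.

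**Figure D2:**
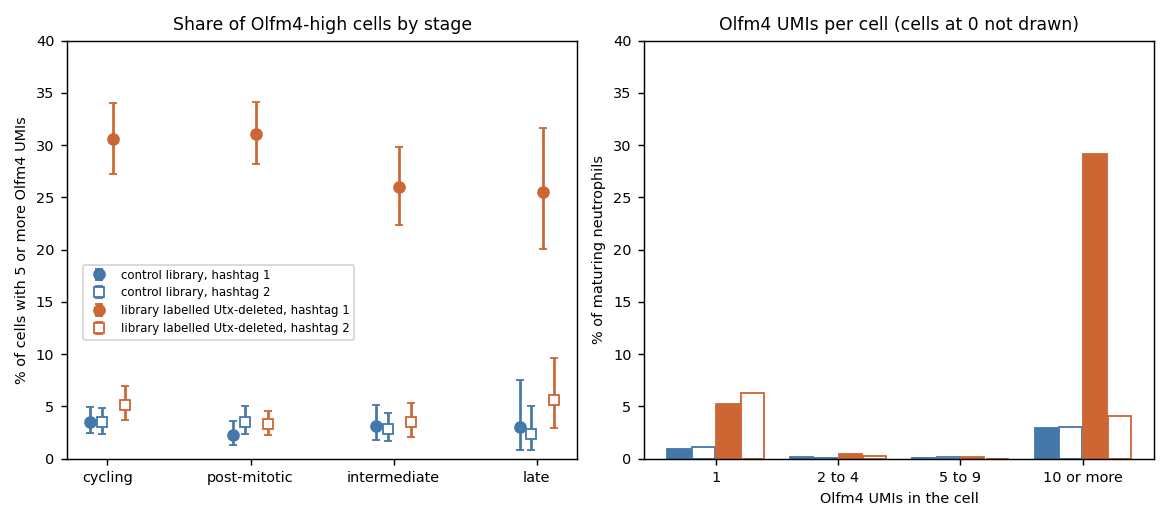
Left, share of cells with 5 or more Olfm4 UMIs at 4 stages of neutrophil maturation, in % with 95% exact binomial intervals. Right, share of maturing neutrophils with 1, 2 to 4, 5 to 9, and 10 or more Olfm4 UMIs, with filled bars for hashtag 1 and open bars for hashtag 2 in the colours of the left panel. Hashtag 1 of the Utx-labelled library stood at 25.5 to 31.1% at every stage drawn, and the middle UMI bins were nearly empty.

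Between hashtags of the same library such a gap was rare. Within the Utx-labelled library, Olfm4 was 3.03 log2 units higher in hashtag 1 than in hashtag 2, rank 2 of 9725 genes tested, of which 0.0617% were 2-fold or more above hashtag 2 and 0.134% that far below it. Within the control its log2 difference was -0.08. None of the other 9 genes differed 2-fold between the hashtags of the Utx-labelled library, and their widest differences were those of Frmpd4 (31.9 against 40.2 CPM) and Tmem45a2 (54.3 against 68.3 CPM), each -0.33.

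Olfm4-high cells were set beside the cells without Olfm4 of the same library and hashtag. Within hashtag 1 of the Utx-labelled library, the specific granule panel (Ltf, Ngp, Camp, Lcn2) differed by 0.01 log2 units between 730 Olfm4-high and 1621 Olfm4-negative cells, Astn2 by 0.07 and Orm1 by -0.05. The panel was lower in Olfm4-high cells of hashtag 2 of that library, by -0.05, and of control hashtags 1 and 2, by -0.10 and -0.03, with intervals below 0. In hashtag 1 of the Utx-labelled library the median totals of Olfm4-high and Olfm4-negative cells were 9873 and 9269 UMIs, and the Gr1 antibody took a median of 69.9% and 71.8% of the tag UMIs. Tmem45a2 was higher in the Olfm4-high cells (72.1 against 45.9 CPM, log2 ratio 0.65) and Sugct lower (22.03 against 34.7 CPM, -0.65). In hashtag 2, with 102 Olfm4-high cells, the interval included 0 for Tmem45a2 (-0.06, -0.38 to 0.22) and for Sugct (0.28, -0.19 to 0.66). There Astn2 was lower in the Olfm4-high cells (-0.45, -0.64 to -0.26), as was Nt5e (-0.46, -0.92 to -0.09), whereas Astn2 differed by -0.28 (-0.90 to 0.19) in control hashtag 1 and by 0.66 (0.19 to 1.05) in control hashtag 2. Frmpd4 was lower in Olfm4-high cells of both hashtags of the Utx-labelled library, by -0.23 (-0.45 to -0.01) and -0.92 (-1.53 to -0.45). In the control it was higher in them, by 1.999 (1.03 to 2.70) and 1.82 (0.72 to 2.59), from 15 and 12 UMIs in 68 and 84 Olfm4-high cells. These contrasts pooled the stages. Within post-mitotic cells alone, intervals still excluded 0 in hashtag 1 of the Utx-labelled library for Tmem45a2 (0.64), Sugct (-0.63) and Frmpd4 (-0.45). In its hashtag 2, with 33 Olfm4-high cells, they included 0 for Astn2 (0.17), Nt5e (-0.72) and Frmpd4 (-0.29). In control hashtag 2 Astn2 stayed higher (1.22), while Frmpd4 (1.47) had an interval from -0.45 to 2.56. In control hashtag 1, 16 post-mitotic Olfm4-high cells had 0 Frmpd4 UMIs. All these intervals take each UMI as independent and describe the cells of these libraries only.

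Along maturation the genes followed 3 courses. Cells were staged by marker sums: progenitors by azurophil genes, cycling and post-mitotic cells by specific granule genes with and without cell-cycle genes, and intermediate and late cells by Retnlg and Mmp8. Orm1, Rasl11b, Mapk4 and Tnfsf13b were highest in post-mitotic cells of both libraries with the hashtags pooled, and stood lower after that. Orm1 stood at 169, 253, 58.3 and 3.30 CPM in cycling, post-mitotic, intermediate and late cells of the control, and at 367, 441, 116 and 10.8 CPM in those of the Utx-labelled library. Rasl11b, whose peak fell in other stages within the control hashtags, was nearly level over cycling and post-mitotic cells (25.4 and 26.6 CPM in the control, 43.5 and 47.3 CPM in the other library) and stood at 8.01 and 10.1 CPM in late cells.

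With the hashtags pooled, Astn2, Tmem45a2, Sugct and Frmpd4 peaked one stage later or over both middle stages. Within control hashtag 2, Sugct was highest in 30 transitional cells (34.3 CPM, 16.5 to 63.2), against 29.2 CPM in post-mitotic cells. Astn2 rose through 17.8, 51.0 and 97.1 CPM to intermediate cells of the control and stood at 32.5 CPM in late cells. In the Utx-labelled library it ran through 125, 272 and 364 CPM to 214 CPM. The log2 ratio was 2.81 in cycling, 2.41 in post-mitotic, 1.91 in intermediate and 2.70 in late cells, and in late cells it was 1.89 within hashtag 1 and 3.36 within hashtag 2. The few transitional cells (63 and 51) stood at 28.8 and 28.6 CPM, from 21 and 28 UMIs. Tmem45a2 reached 34.3 CPM in intermediate control cells, and 87.0 and 91.1 CPM in post-mitotic and intermediate cells of the other library, and was at 3.30 and 15.1 CPM in late cells. Olfm4, set mainly by the share of Olfm4-high cells, stood at 77.6, 132, 183 and 136 CPM over the 4 stages in the control. Over all cells of the other library it stood at 552, 1022, 1207 and 1284 CPM. The hashtags of that library parted at the end. Hashtag 1 peaked in intermediate cells (2227 CPM) and stood at 1964 CPM in late cells, while hashtag 2 stood at 234 and 480 CPM. Frmpd4 had only 2 UMIs in 394 late cells of the control and 70 in 456 late cells of the Utx-labelled library.

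Nt5e alone among the 10 was highest in late cells in both libraries and all hashtags. It stood at 3.07, 15.1, 88.2 and 139 CPM over the 4 stages in the control and at 11.04, 44.9, 135 and 206 CPM in the Utx-labelled library. The libraries stood further apart in the early stages, by 1.84 log2 units (1.52 to 2.18) in cycling cells, than in late cells, by 0.57 (0.37 to 0.78). From cycling to late cells the level was 5.49 log2 units higher in the control and 4.22 in the other library.

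Tnfsf13b was not shown higher at any of these stages. In progenitors it had 13 UMIs in 353 control cells and 4 in 508 of the others. In cycling cells the libraries stood at 81.1 and 84.96 CPM, with an interval of the log2 ratio from -0.01 to 0.14. It was lower in the Utx-labelled library, by -0.31 in post-mitotic, -0.57 in intermediate and -1.22 (-1.68 to -0.79) in late cells, where the levels were 55.1 and 23.5 CPM. Mapk4 was lower in progenitors of the Utx-labelled library (13.3 and 9.01 CPM, log2 ratio -0.56) and higher in its post-mitotic cells (148 and 204 CPM, 0.46). The post-mitotic excess was mainly that of hashtag 2, at 123 and 219 CPM. In hashtag 1 the levels were 178 CPM (168 to 188) and 186 CPM (177 to 195), overlapping intervals.

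**Figure D3:**
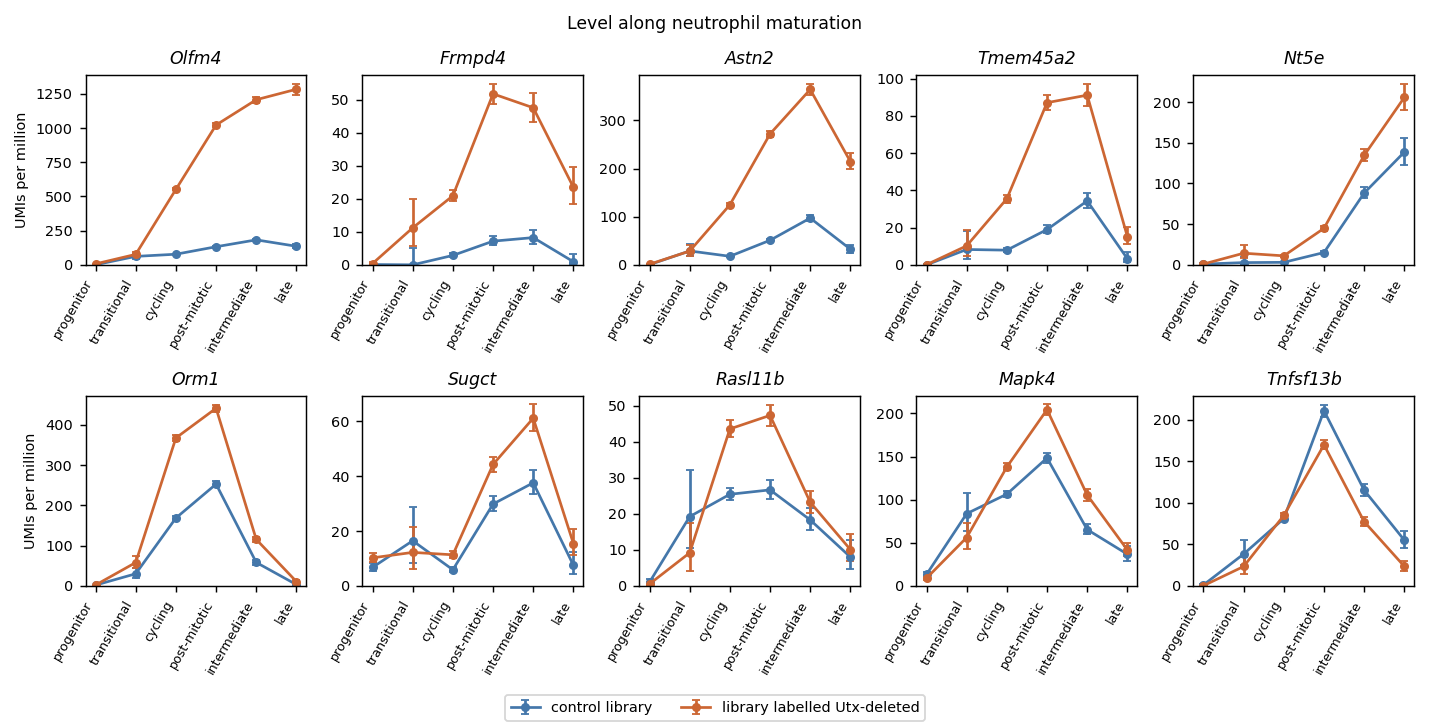
Level of each gene at 6 stages of the neutrophil lineage, in CPM with 95% Poisson intervals, for the control library (blue) and the Utx-labelled library (orange). Nt5e reached its highest values, 139 and 206 CPM, in late cells, Orm1 peaked in post-mitotic cells at 253 and 441 CPM, and Tnfsf13b was lower in the Utx-labelled library from the post-mitotic stage on.

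The genes also differed in how their UMIs were spread over cells of 1 stage. Post-mitotic cells with 1 hashtag were used, 1541 in the control and 1979 in the Utx-labelled library. In them, the share of cells with a UMI was set beside an even share. The even share is what the same UMIs would give if spread over cells by depth alone. For Orm1, Rasl11b, Mapk4, Tnfsf13b and Nt5e the observed share was 82.2 to 91.4% of the even share in both libraries. It was lower for the others: 60.6 and 61.8% for Tmem45a2 in the control and the Utx-labelled library, 43.7 and 45.9% for Sugct, 44.1 and 38.3% for Frmpd4, 27.3 and 47.8% for Astn2, and 6.20 and 22.7% for Olfm4. The 4 genes with the widest ratios between libraries were thus among the 5 with unevenly spread UMIs.

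In the same post-mitotic cells with 1 hashtag, the share with a UMI and the UMIs per such cell were compared between libraries. The share differed by the larger factor for the unevenly spread genes, Nt5e and Rasl11b, but not for Orm1, Mapk4 and Tnfsf13b. A cell with a UMI holds at least 1, so for genes with few UMIs the share moves more even under even spread. The even shares of Nt5e were 13.5 and 34.1%, so nothing is read from which factor was larger. Astn2 was found in 10.2% of these control cells with 4.69 UMIs per cell with any, and in 43.6% of the others with 6.20. Frmpd4 was found in 2.92% of cells with 2.36 UMIs each, and in 15.3% with 3.42. Tmem45a2 was found in 9.67% with 1.81 UMIs each, and in 35.0% with 2.49. Nt5e, an evenly spread gene, was found in 11.1% with 1.32 UMIs each, and in 28.8% with 1.48. Orm1, which went the other way, was already found in 75.8% of control cells with 3.18 UMIs each, and in 88.7% of the others with 4.79.

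Counted per cell, maturing neutrophils of the Utx-labelled library held UMIs of a mean of 3.87 of the 10 genes, against 2.47 in the control. With each cell thinned to 2000 UMIs the means were 1.64 and 0.88, and 21.5% against 4.40% of cells held 3 or more of the genes. In hashtags 1 and 2 that share was 23.7 and 18.3%, against 4.88 and 3.90% in those of the control. Since the contrast between libraries chose the genes, nothing is read from these counts per cell. Shares of cells with a UMI, thinned in the same way, were 23.6% against 5.27% for Astn2, 39.1% against 23.2% for Orm1, 18.6% against 3.40% for Olfm4, 12.2% against 6.67% for Nt5e and 18.3% against 20.7% for Tnfsf13b, the Utx-labelled library first. At their own depth these shares were 43.0 against 9.97%, 72.5 against 59.3%, 23.9 against 4.41%, 34.6 against 17.1% and 57.8 against 60.7%. Thinning left out 27 and 52 maturing neutrophils.

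In the HSC/MPP-like cells, named by Mecom, Hlf and Flt3, the thinned shares were at most 1.81% for 9 of the genes. The exception was Sugct, found in 2.39% and 4.71% of HSC/MPP-like cells of the control and the other library, against 3.24% and 5.05% of maturing neutrophils. Its level was 13.1 and 15.8 CPM in HSC/MPP-like cells and 16.2 and 33.3 CPM in an unnamed cluster led by Pf4, Car1 and Prss34. Median depths were 26858 and 31511 UMIs in HSC/MPP-like cells and 9809.5 and 9831 in maturing neutrophils. Nt5e was also found in T or NK cells, with 32 UMIs in 33 T or NK cells of the control (113 CPM) and 11 UMIs in 37 of the other library (36.5 CPM).

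Single Olfm4 UMIs were found in classes in which Olfm4-high cells made up at most 0.992%. In the Utx-labelled library, 11.8% of progenitors, 9.42% of HSC/MPP-like cells and 10.2% of monocyte-progenitor-like cells had exactly 1 Olfm4 UMI, against 1.98%, 1.70% and 1.84% in the control. In hashtags 1 and 2 of that library these shares were 12.8 and 9.81% of progenitors and 12.6 and 7.88% of HSC/MPP-like cells. For monocyte-progenitor-like cells they were 8.81 and 11.5%. The hashtags thus stood closer here than in the share of Olfm4-high maturing neutrophils (29.3 and 4.07%). Orm1 showed a comparable pattern in relation to the specific granule panel. Per 1000 panel UMIs it had 3.05 UMIs in maturing neutrophils of the Utx-labelled library and 3.18, 2.79 and 3.16 in HSC/MPP-like cells, monocyte-progenitor-like cells and the Pf4 cluster. In the control these were 1.64, 1.75, 2.35 and 1.35. Whether counts at this level in non-neutrophil cells are background was not tested, and they are not read as expression. The unnamed cluster led by Cd74 and H2-Aa differed from these classes, since 14 of its 89 cells in the Utx-labelled library had 5 or more Olfm4 UMIs (15.7%, median 61) and 22 had 5 or more Orm1 UMIs (24.7%, median 15.5). Of these 89 barcodes 19 carried both hashtags, with a median of 37202 UMIs. Among those with 1 hashtag, 2 of 27 in hashtag 1 and 5 of 43 in hashtag 2 had 5 or more Olfm4 UMIs, and 4 and 8 had 5 or more Orm1 UMIs. Per 1000 panel UMIs that cluster had 3.04 Orm1 and 8.65 Olfm4 UMIs in the Utx-labelled library, against 3.05 and 7.53 in its maturing neutrophils.

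The 2 libraries fell largely into separate neutrophil clusters although the 10 genes were not used in clustering. Of the clusters made mostly of maturing neutrophils, 5 were held at 90% or more by the control and 5 by the Utx-labelled library, after adjustment for library size, while 3 were mixed, so levels were compared by marker gates rather than by cluster. All clusters led by neither library, of whatever kind, together held 596 and 479 maturing neutrophils. Those with 1 hashtag had 16.5 and 111 CPM of Astn2, 2.44 and 28.0 CPM of Frmpd4, 9.19 and 38.3 CPM of Tmem45a2 and 174 and 341 CPM of Orm1 in the control and the Utx-labelled library. A few cells lay in clusters of the other library, namely 155 control cells and 126 cells of the Utx-labelled library with 1 hashtag. For Astn2, Frmpd4, Nt5e, Orm1 and Olfm4 the intervals of these 2 sets of cells did not overlap, with the Utx-labelled library above. Overlap was not counted over all genes, and the contrast between libraries chose these genes. Nothing is therefore read from how many of them did not overlap. Astn2 stood at 57.0 CPM (45.2 to 70.9) in those control cells and at 173 CPM (152 to 196) in those cells of the Utx-labelled library, against 41.9 and 238 CPM in cells of each library's own clusters. Frmpd4 had 2 UMIs in those control cells (1.42 CPM, 0.17 to 5.14) and 37 in the others (26.0 CPM, 18.3 to 35.9). Nt5e stood at 17.8 and 41.5 CPM. For Orm1 the values were 205 and 284 CPM, and for Olfm4 208 and 566 CPM, between the 109 and 930 CPM of each library's own clusters. Tmem45a2 stood at 19.2 CPM (12.7 to 28.0) and 30.3 CPM (21.9 to 40.8), overlapping intervals, and in those cells of the Utx-labelled library it lay below the 65.6 CPM of its own clusters. Intervals also overlapped for Rasl11b (25.6 and 31.7 CPM), Sugct (22.8 and 30.3 CPM), Mapk4 (106 and 134 CPM) and Tnfsf13b (117 and 110 CPM).

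**Figure D4:**
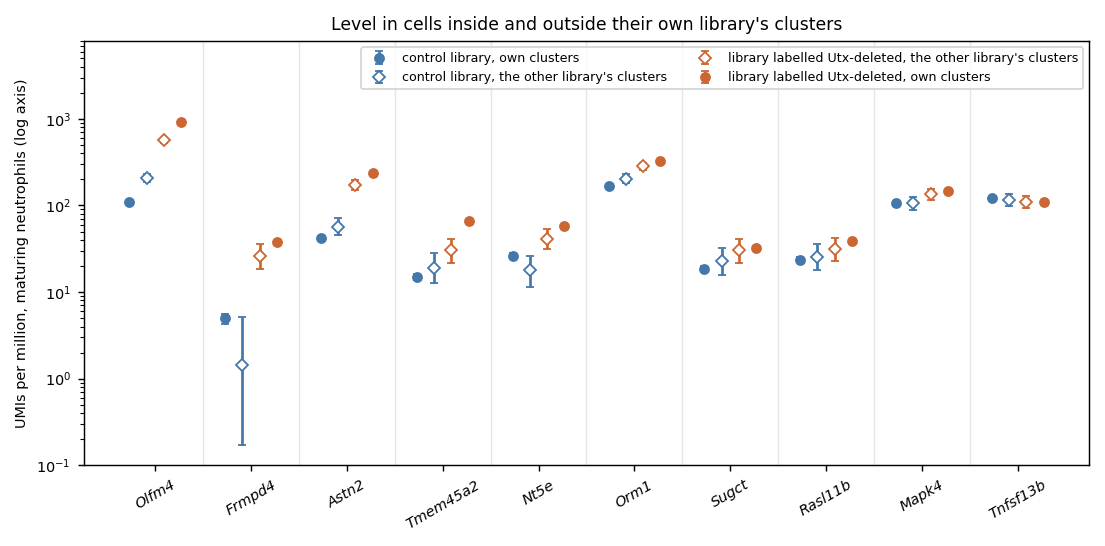
Level of each gene in maturing neutrophils, in CPM on a log axis with 95% Poisson intervals, for cells in clusters held mostly by their own library (filled circles) and by the other library (open diamonds). Control cells are blue and cells of the Utx-labelled library orange. For Astn2, Frmpd4, Nt5e and Orm1 the 155 control cells in the other library's clusters lay below the 126 cells of the Utx-labelled library in control clusters.

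Genes of related function were read from 6 lists, and over all genes tested 1.27% stood 2-fold or more above the control and 3.5% that far below, so a list of this size with no gene above is near the background. Of 18 specific and gelatinase granule genes tested none was 2-fold higher or lower, and their median log2 ratio was 0.05, with Camp at 0.07 and Ltf at 0.04. Of 15 acute-phase genes 6 were tested, none was 2-fold higher, and Fgl2, a fibrinogen-like prothrombinase, was lower (9.31 and 3.59 CPM, -1.37). The plasma proteins Hp and Lrg1 were at 0.10 and -0.18.

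Of 4 genes of the BAFF and APRIL system 2 were tested. Tnfsf13, which encodes APRIL, was lower, with 21.3 CPM in the control and 9.37 CPM in the Utx-labelled library (-1.18), and the receptor Tnfrsf13b differed by -0.77. Of 13 extracellular adenosine genes 4 were tested, and none was 2-fold higher. Cd38, an enzyme that consumes NAD, was lower by -3.24 log2 units (182 and 21 UMIs), and Entpd1, which encodes the enzyme CD39 that supplies AMP to CD73, stood at 109 and 54.8 CPM (-0.99). None of 6 tested paralogues and partners of the 10 genes and none of 13 tested neutrophil transcription factors differed 2-fold. Spi1, which encodes PU.1, was at -0.05 and Cebpe, a factor of specific granule genes, at 0.10. The lists' median log2 ratios ran from -0.97 to 0.05, beside -0.07 over all genes tested.

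Antibody tags of the same cells differed between libraries as well. The Gr1 antibody took a median of 48.0% of tag UMIs in control maturing neutrophils and 66.6% in those of the Utx-labelled library, and CD16/32 took 25.8% and 15.6%. At the late stage the Gr1 shares were 80.7% and 83.0%. The part of these differences, and of the barcodes that carry both hashtags (171 and 370 of the maturing neutrophils), in the gene levels was not tested, but with those barcodes left out the median log2 ratio of the 10 genes was 1.06.

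Over 32 profiles (classes by library and hashtag), the genes with the profiles most like each of the 10 were partly other members. The likeness is Pearson's r of log levels, given as a description, since profiles of 1 library share its depth and cells. The 10 genes were also selected on levels in cells of these profiles, which favours likeness between members. Nothing is therefore read from members being near each other. Nt5e was most like Adgrl3 (0.99) and Fpr1, the formyl peptide receptor (0.99). Astn2 was most like Fpr3 (0.97) and the calcium channel gene Cacna1e (0.97), which itself stood at a log2 ratio of 2.08 (460 and 2210 UMIs). Olfm4 was most like Man2a1 (0.93), whose own log2 ratio was 0.06, and Tmem45a2 most like A930014D07Rik (0.94). Tmem45a2 and Frmpd4 were among the 3 nearest of each other (0.94), and Astn2 was among the 3 nearest of both Olfm4 (0.93) and Frmpd4 (0.91). Rasl11b was most like Cpa6 (0.98) and the granule gene Chil3 (0.98), Mapk4 most like Gm47071 (0.97), Tnfsf13b most like Cldn1 (0.98), and Orm1 most like Lipg (0.94). Sugct had no close profile, with 0.84 for 4632427E13Rik as the highest.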

How the data were processed

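The authors deposited unnormalized UMI counts, with 32285 genes and 15 antibody tags as rows and barcodes as columns, for 1 library of each label. Cell Ranger 7.1.0 and mm10 are named in the submitters' processing notes. The settings of cell calling and counting are not given in the sources used here. The 10 genes and all gene lists were chosen with earlier results of these data known.

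From the deposited counts, cells with at least 500 genes and under 10% mitochondrial UMIs were kept. Scrublet's own threshold, which called 0.0134% of control cells and 0% of the others doublets, had failed. The 6% of cells with the highest scores per library (467 and 463) were left out instead, and doublets may remain. The 2000 most variable genes, without the 10 genes and Kdm6a, gave 30 principal components, 15 neighbours and Leiden clusters at resolution 1 (scanpy 1.11.5, leidenalg 0.10.2, Python 3.11.15). Stages were gated within neutrophil clusters on sums per 10000 UMIs: azurophil genes at 30 or more, specific granule genes at 30 and 300, Retnlg with Mmp8 at 20 and 200, and cell-cycle genes at 4. Up to 596 of 11451 lineage cells lay within 1.25-fold of a threshold. A hashtag was called at 100 UMIs and 5 times the other. CPM are UMIs of a class over its gene UMIs, times 1e+06. Log2 ratios add 1 UMI to each sum, and intervals are exact (Poisson, or Clopper-Pearson). Thinned values draw 2000 UMIs per cell. The ratio and its interval were tested on simulated data. The cut of 5 Olfm4 UMIs was set after its distribution had been seen.

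Named in the text are the 10 genes, list members past 2-fold or used in a count, and for each gene its nearest in profile and some of the 3 with the highest r. List members within 2-fold that are named (Camp, Ltf, Hp, Lrg1, Tnfrsf13b, Entpd1, Spi1, Cebpe, Orm2 and Orm3) were chosen after their values were seen. Alternatives changed the cell filter, doublets, resolution, gates, scaling (TMM, edgeR 4.0.16), thinning, stage weights, barcodes, hashtags, the UMI minimum, the fold and the added UMI.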

Additional observations from a re-analysis of the deposited data

Results flagged for a closer look

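For 2 genes the difference between libraries had opposite signs in 2 cell classes, in both hashtags each. The difference between the classes was not tested. Mapk4 was lower in progenitors of the Utx-labelled library, with a log2 ratio of -0.56, and higher in its maturing neutrophils, at 0.46. It was also higher in HSC/MPP-like cells and the Pf4 cluster of that library. Tnfsf13b was higher in the unnamed cluster led by Pf4, Car1 and Prss34 of that library, with a log2 ratio of 1.77 (27 and 41 UMIs), and lower in its maturing neutrophils, at -0.13. Per 1000 UMIs of the specific granule panel, Tnfsf13b had 1.45 and 1.58 UMIs in that cluster, against 1.15 and 0.98 in maturing neutrophils. The cluster thus stood above maturing neutrophils in both libraries, and further above in the Utx-labelled library. Whether these few counts are background was not tested, and they are not read as expression.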

How the results depend on the processing

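With 1 library for each label, counting error is the only error that can be given, and differences between libraries cannot be told apart from differences between labels. No paired analysis was possible because the labels carry no replicate numbers. The median log2 ratio of the 10 genes was 0.83 to 1.20 over 16 alternatives and moved furthest, to 0.83, with the same stage weights in both libraries. The count of genes at least 2-fold higher, 139, was 52 with cells thinned to 2000 UMIs, 304 with a minimum of 20 UMIs, 49 with a minimum of 500, and 388 at 1.5-fold, and lay within 1.5 times under the other 12 alternatives. Frmpd4, Astn2 and Tmem45a2 stayed at least 2-fold higher under each of 16 alternatives, Olfm4 under 15 (0.81 with hashtag 2 only) and Nt5e under 11 (0.69 at the lowest, with the same stage weights). Orm1 passed 2-fold under 4, and Sugct under 1. Of 160 ratios of single genes under alternatives, 101 lay within the main ratio's counting interval, 58 moved outside it and 1 reversed sign. The direction of 9 genes held under each alternative. That of Tnfsf13b reversed, to 0.29, under the stricter cell filter, where 1422 control and 23 other maturing neutrophils fell in a cluster that lost its name and left the class. With the classes kept it was -0.13 under the same filter, an alternative added after seeing the data, as were leaving out the 20 barcodes with the most UMIs of each gene (median 1.09) and other cuts for Olfm4-high cells. At 3 or 10 UMIs their shares in hashtags 1 and 2 of the Utx-labelled library were 29.4 and 4.11%, and 29.2 and 4.07%. TMM scaling shifted each ratio by 0.08. The difference in shares of cells with a UMI kept its sign for all 10 genes when thinned, and shrank for 9, growing for Orm1 (13.2 to 15.9 percentage points).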
